A study of Mus musculus with 12 samples.

Results

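The 27 genes described here encode receptors for the inhibitory transmitters GABA and glycine, a scaffold and an adhesion protein of inhibitory synapses, and the chloride cotransporters that set the direction of the current through these receptors. They were chosen by symbol, and each of the 27 matched a line of a table of 24570 named genes. Further subunits of the same families are not analysed here. GABA-A, rho (GABA-C) and glycine receptors are chloride channels of 5 subunits, GABA-B receptors are pairs of subunits coupled to G proteins, and GABA and glycine in the retina are released mostly by amacrine and horizontal cells. Retinal bipolar cells carry rho receptors at their terminals, and ganglion and amacrine cells carry GABA-A and glycine receptors.

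RNA of whole retinas from male C57Bl6/J mice, called outbred in the labels, was hybridised to 1 array per animal, in 2 groups. The 6 diabetic animals had received streptozotocin, a toxin of insulin-producing beta cells, by a single intraperitoneal dose of 160 mg/kg at 8 weeks of age, and on day 7 their blood glucose had to exceed 15 mM. The 6 control animals were age-matched, normoglycaemic and without streptozotocin, and the labels name no vehicle. Retinas were taken at 6 weeks. The sample labels count these from the induction of diabetes, whereas the series text makes the diabetic animals 6 weeks old, so the age is not settled here. Animal numbers in the labels ran in ranges that did not overlap between the groups, so a cohort difference, if the numbers mark one, cannot be told apart from diabetes.

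Values were log2 RMA values (robust multi-array average), with the same sorted values on all 12 arrays (median 5.73, from 5.07 to 14.10). As a check of the tissue, the bipolar cell marker Grm6 was bright, with 9.10 ± 0.17 in diabetic retinas and 9.30 ± 0.11 in control retinas (SD, n = 6 each), a log2 change of -0.20 ± 0.08 that did not pass (limma adjusted p = 0.154). The means of 13 marker lists, among them amacrine, ganglion and Mueller cells, lens and pigment epithelium, overlapped between the groups in all 13. Only 2.84% of all genes had groups that did not overlap, so overlap does not show equal cell content. Of the single marker genes 4 passed the test, all lower in diabetic retinas. These were the rod marker Gngt1 (log2 change -0.29), the amacrine cell marker Dab1 (-0.25), the horizontal cell marker Septin4 (-0.24) and the oligodendrocyte marker Cldn11 (-0.11). They are 1 of 7 rod, 1 of 10 amacrine, 1 of 6 horizontal and 1 of 6 oligodendrocyte markers, and the other lists held no call. Of all genes 3.24% passed, and 1.77% passed with lower values in diabetic retinas. From a single call in a list, nothing of its cell type can be read. The part of these markers in the changes below was not tested. Lens markers averaged 6.30 ± 0.56 in diabetic retinas and 6.08 ± 0.27 in control retinas (SD, n = 6 each), with diabetic 6 (7.16) and diabetic 2 (6.84) highest, and 4 of the 10 lens markers were not above background. In whole tissue, fewer cells of a type and less RNA per cell cannot be told apart.

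Of the 27 genes, 23 gave signal above background, taken as the 95th percentile (log2 5.53) of the means of 1370 odorant and vomeronasal receptor genes. The 4 others were the alpha 6 subunit gene Gabra6 (mean 5.19), best known from cerebellar granule cells, and those of the epsilon, pi and theta subunits, Gabre (5.42), Gabrp (5.32) and Gabrq (5.27). Gabrp had lowest, median and highest log2 values of 5.27, 5.32 and 5.34 in diabetic retinas, against 5.30, 5.34 and 5.36 in control retinas, and these overlapped. With the 99th percentile of the same receptor genes (6.16) as the limit, 18 of the 27 remained, and Gabra4 (6.10), Gabrd (5.97), Glra4 (5.95), Gabrg1 (5.91) and Gabra5 (5.64) were also below it. Brightness differs between probe sets for reasons other than RNA amount, so levels of different genes were not ranked.

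**Figure D1:**
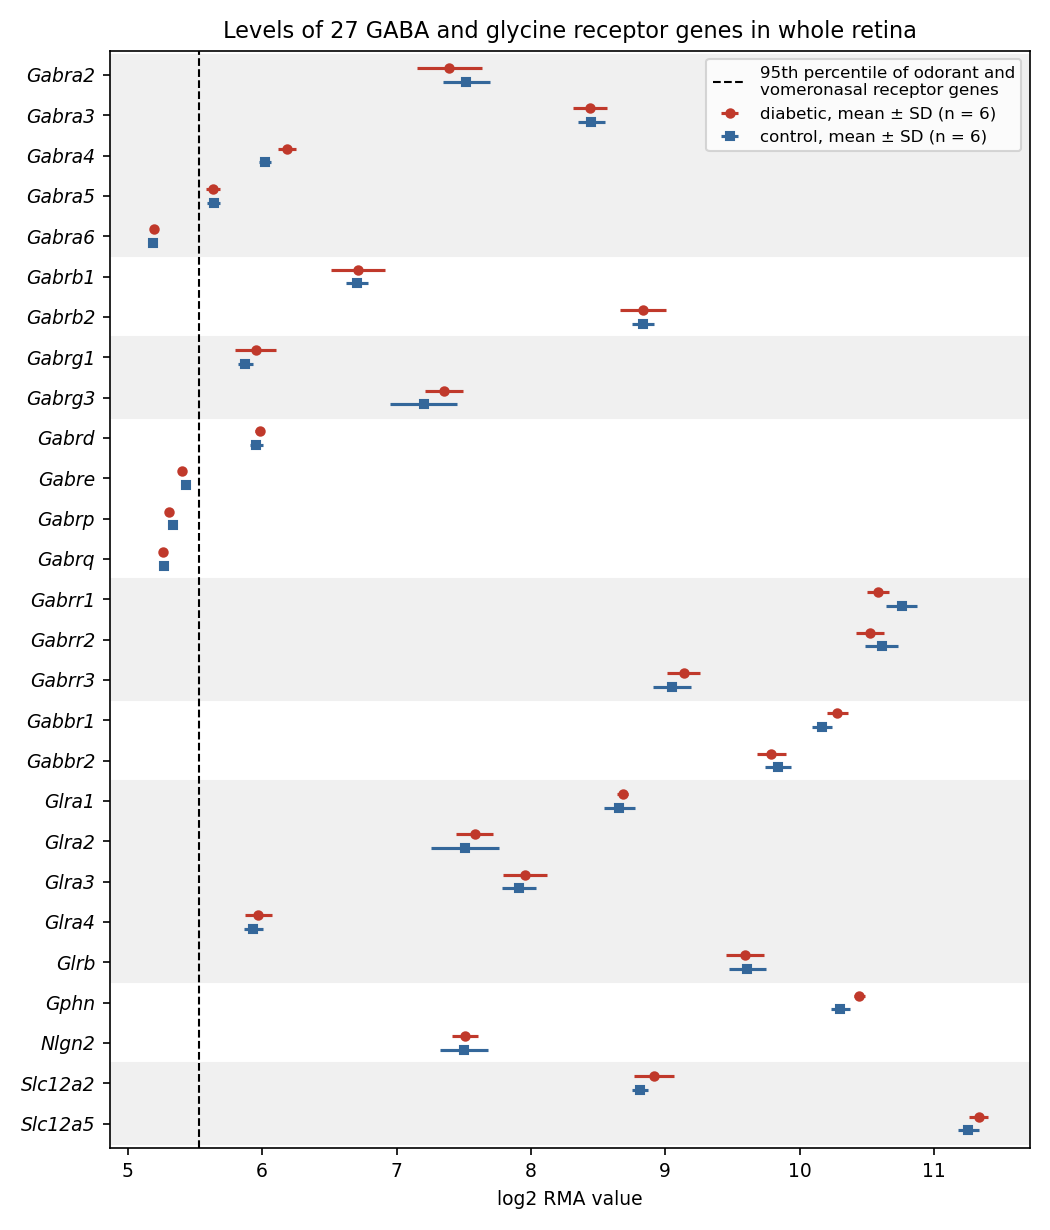
Log2 RMA values (horizontal axis) of the 27 genes, grouped by family with shading, as means with SD over 6 diabetic retinas (circles) and 6 control retinas (squares). The dashed line is the background of 5.53, with Gabra6, Gabre, Gabrp and Gabrq to its left.

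In diabetic retinas 2 of the 27 genes rose and 0 fell at an adjusted p under 0.05 (limma, Benjamini-Hochberg over all 24570 genes), against 3.24% of all genes called, 1.47% of them upward. These were Gabra4, the alpha 4 subunit of GABA-A receptors, which was 1.12-fold higher, and Gphn, which encodes the synaptic scaffold gephyrin and was 1.11-fold higher. The 2 calls make up 7.41% of the 27 genes. Among genes above background, they make up 8.7% of the 23 members, against 4.91% of all such genes. From a count of 2, nothing particular to these genes can be read. At an unadjusted p under 0.05 there were 4 of the 27 genes (14.8%), Gabra4, Gphn and Gabbr1 upward and Gabrr1 downward, against 21.0% of all genes. The median log2 change of the 27 was 0.01 and that of all genes -0.0018, and the median absolute change was 0.04 for the 27 and 0.03 for all genes. Log2 changes were above 0 for 17 and below 0 for 10 of the 27, and the range ran from -0.18 (Gabrr1) to 0.16 (Gabra4).

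**Figure D2:**
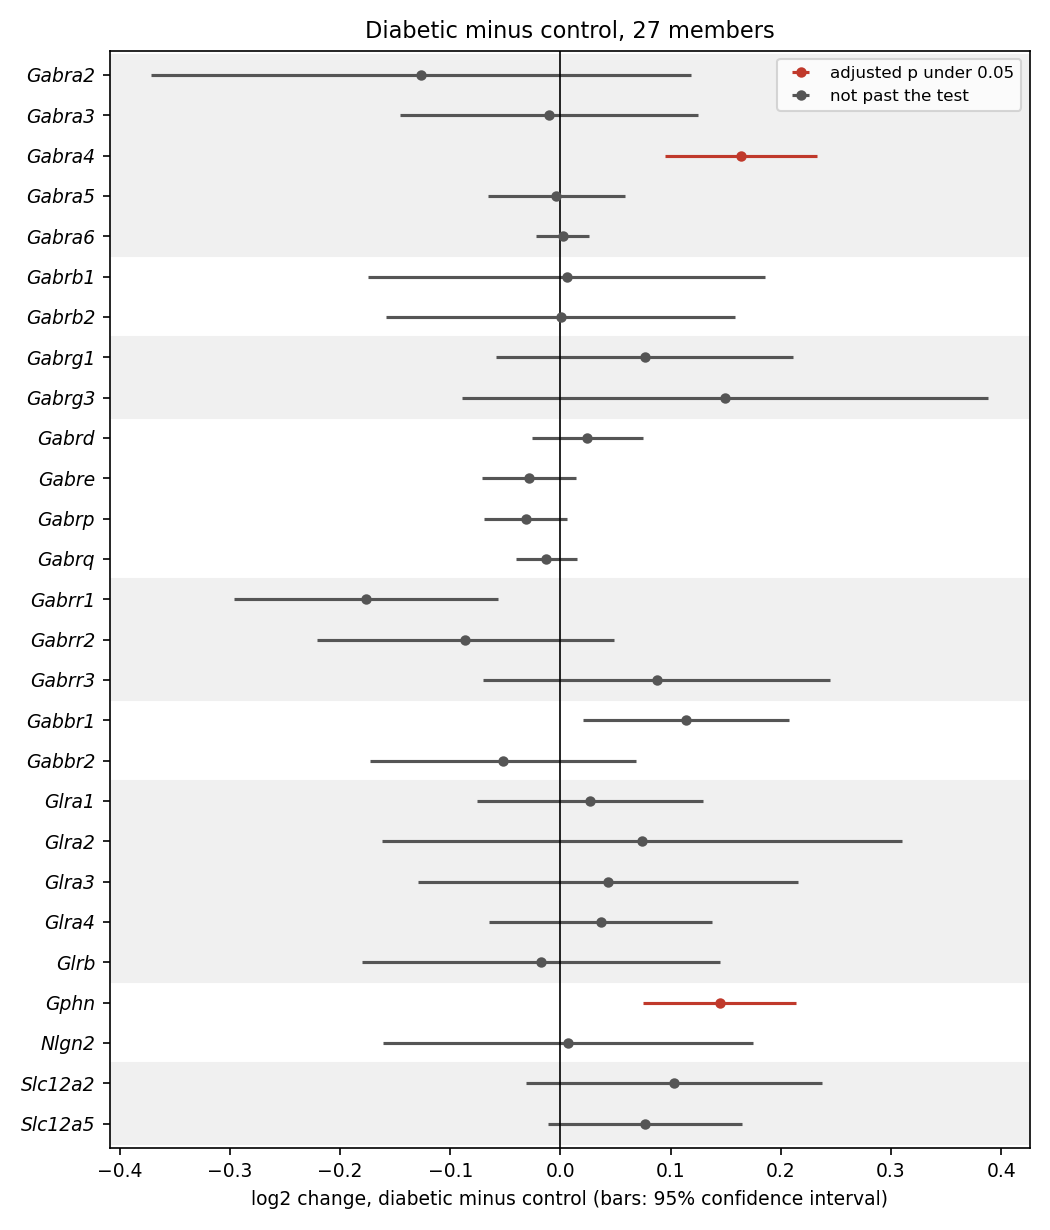
Log2 change, diabetic minus control, of the 27 genes (horizontal axis) with 95% confidence intervals from limma. Gabra4 (0.16) and Gphn (0.14), in red, passed the test over all genes. The intervals of Gabrr1 (-0.18) and Gabbr1 (0.11) lie off 0 without passing after adjustment.

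Among the GABA-A alpha subunits, which shape the GABA and benzodiazepine sites, Gabra4 rose. Alpha 4 subunits join delta subunits in receptors outside synapses that carry tonic current. Its lowest, median and highest log2 values were 6.10, 6.18 and 6.29 in diabetic retinas, against 5.96, 6.02 and 6.09 in control retinas. The groups did not overlap, as in 1 of the 27 genes and in 2.84% of all genes, and the gap between diabetic 2 and control 3 was small. The log2 change was 0.16 ± 0.03 (SE, n = 6 each; limma adjusted p = 0.0227; 95% confidence interval 0.10 to 0.23). All 11 runs that left out an array other than diabetic 3 kept the call, and without diabetic 3 the adjusted p was 0.0518. The gene is dim, and RMA understates changes near background, so the size of this change is uncertain.

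The other alpha subunit genes did not pass. Gabra3, of receptors in the inner retina, had log2 values of 8.22, 8.49 and 8.54 in diabetic retinas, against 8.32, 8.42 and 8.61 in control retinas (lowest, median and highest). Gabra2 ran from 6.95 to 7.58 (median 7.49) in diabetic retinas and from 7.23 to 7.69 (median 7.58) in control retinas. The groups overlapped for both genes, and the log2 changes were -0.01 ± 0.06 for Gabra3 (adjusted p = 0.947) and -0.13 ± 0.11 for Gabra2 (adjusted p = 0.565). The interval of the Gabra2 change, -0.37 to 0.12, leaves room for a difference larger than that called for Gabra4. Gabra5, an alpha subunit found mostly outside synapses, averaged 5.63 ± 0.05 in diabetic retinas and 5.64 ± 0.05 in control retinas (SD), just above background. Gabra6 differed by 0.0020 at a level below background, where a change could not have been seen.

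The beta subunits, which nearly all GABA-A receptors contain, had changes near 0. Gabrb2 averaged 8.83 ± 0.17 in diabetic retinas and 8.83 ± 0.08 in control retinas (SD), and Gabrb1 averaged 6.71 ± 0.20 in diabetic retinas and 6.71 ± 0.08 in control retinas. For both genes, diabetic 6 was the highest array (9.12 for Gabrb2, 7.08 for Gabrb1) and diabetic 2 the lowest (8.63 and 6.49), so the spread was wider among diabetic retinas. The confidence intervals, -0.16 to 0.16 for Gabrb2 and -0.17 to 0.19 for Gabrb1, amount to 0.896-fold to 1.12-fold and 0.886-fold to 1.14-fold.

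Of the gamma subunits, which most synaptic GABA-A receptors contain, Gabrg3 averaged 7.35 ± 0.14 in diabetic retinas and 7.20 ± 0.25 in control retinas. Control 6 (6.80) and control 1 (7.04) were the lowest, and the other arrays lay between 7.19 and 7.58. The log2 change of 0.15 ± 0.11 did not pass (adjusted p = 0.471), and without control 6 it was 0.07. Gabrg1 differed by 0.08 ± 0.06 (adjusted p = 0.521), and by 0.13 without diabetic 2, which had 5.67 while the other diabetic arrays lay at 5.92 or above (adjusted p = 0.0777). Gabrd, the delta subunit that partners alpha 4 in tonic receptors, averaged 5.98 ± 0.03 in diabetic retinas and 5.96 ± 0.05 in control retinas, with a log2 change of 0.02 ± 0.02 (adjusted p = 0.597).

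By gene order in the RefSeq annotation, several GABA-A genes lie side by side. Gabrg1, Gabra2, Gabra4 and Gabrb1 follow each other on chromosome 5 with 1 other coding gene among them. Gabra4 had a log2 change of 0.16, whereas Gabrg1, Gabra2 and Gabrb1 had 0.08, -0.13 and 0.01, and the difference between Gabra4 and these neighbours was not tested. Gabrr1 and Gabrr2 are adjacent on chromosome 4, and Gabra6 and Gabrb2 on chromosome 11.

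The rho subunits form GABA receptors that desensitize little and are typical of retinal bipolar cells. Gabrr1 had lowest, median and highest log2 values of 10.46, 10.59 and 10.70 in diabetic retinas, against 10.60, 10.76 and 10.93 in control retinas. Control 5 (10.60) and control 6 (10.67) lay within the diabetic range. The log2 change of -0.18 ± 0.05 (0.885-fold; 95% confidence interval -0.30 to -0.06) was the largest of the 27 genes in absolute size and did not pass (adjusted p = 0.0979). Over all alternatives and all runs without 1 array its adjusted p lay between 0.05003 and 0.204, and its sign was the same.

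Its neighbour Gabrr2 ran from 10.42 to 10.69 in diabetic retinas and from 10.50 to 10.80 in control retinas, with a log2 change of -0.09 ± 0.06 (adjusted p = 0.460). Gabrr3 went the other way, with 9.14 ± 0.13 in diabetic retinas, 9.05 ± 0.14 in control retinas (SD) and a log2 change of 0.09 ± 0.07 (adjusted p = 0.531). The mean of 8 bipolar cell markers ran from 9.74 to 9.89 in diabetic retinas and from 9.69 to 9.83 in control retinas, and it was 9.74 in diabetic 2, the array with the lowest Gabrr1 value. Of these markers Grm6, of the ON bipolar cells, had the log2 change of -0.20 given above, and Isl1 one of 0.17 (adjusted p = 0.0524). The part of bipolar cell RNA in the Gabrr1 values was not tested.

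GABA-B receptors need both of their subunits, GABBR1 binding GABA and GABBR2 coupling to the G protein. Gabbr1 had lowest, median and highest log2 values of 10.21, 10.26 and 10.38 in diabetic retinas, against 10.06, 10.16 and 10.29 in control retinas. All diabetic arrays were above 5 of the 6 control arrays, and control 3 overlapped them. The log2 change was 0.11 ± 0.04 (unadjusted p = 0.0207 in limma, adjusted p = 0.154), which did not pass over all genes. Gabbr2 differed by -0.05 ± 0.06 (adjusted p = 0.642), with 9.79 ± 0.11 in diabetic retinas and 9.84 ± 0.10 in control retinas.

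All 5 glycine receptor subunit genes were above background, and 0 of the 5 passed in limma, with 0 also at an unadjusted p under 0.05. Glra1, whose subunit takes part in the glycine input to bipolar cells, had lowest, median and highest log2 values of 8.63, 8.68 and 8.75 in diabetic retinas, against 8.46, 8.67 and 8.79 in control retinas. The diabetic values lay inside the control range, and the log2 change was 0.03 ± 0.05 (adjusted p = 0.793; 95% confidence interval -0.08 to 0.13). Glrb, the beta subunit that ties the receptor to gephyrin, averaged 9.59 ± 0.14 in diabetic retinas and 9.61 ± 0.14 in control retinas, with a log2 change of -0.02 ± 0.07 (adjusted p = 0.921). The alpha subunit genes Glra2 (0.07 ± 0.11), Glra3 (0.04 ± 0.08) and Glra4 (0.04 ± 0.05) had log2 changes with adjusted p from 0.702 to 0.802. Glra2 varied most among controls, from 7.21 in control 5 to 7.83 in control 1, and its interval of -0.16 to 0.31 is the widest of the family.

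Gephyrin, which clusters glycine receptors and many GABA-A receptors under the synapse and also makes the molybdenum cofactor, was the other gene that rose. Gphn had lowest, median and highest log2 values of 10.37, 10.46 and 10.47 in diabetic retinas, against 10.22, 10.30 and 10.40 in control retinas. Diabetic 1 lay apart from the other diabetic arrays, which lay between 10.45 and 10.47, and only control 5 (10.40) overlapped it. The log2 change was 0.14 ± 0.03 (SE, n = 6 each; limma adjusted p = 0.0351; 95% confidence interval 0.07 to 0.21). The call lay close to the threshold: it held in 4 of 12 fits with a single array removed and was lost in 8, with adjusted p from 0.0200 to 0.0718, while the log2 change stayed between 0.13 and 0.16. It was lost without any one of control 1, 2 and 3 and diabetic 2, 3, 4, 5 and 6. The adhesion protein neuroligin 2, which recruits gephyrin to inhibitory synapses, had Nlgn2 values of 7.51 ± 0.10 in diabetic retinas and 7.50 ± 0.18 in control retinas, a log2 change of 0.0072 (adjusted p = 0.972). Control 5 was high at 7.83.

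The 300 bases around the starts of the genes that rose, 250 before and 50 after, are given because Gabra4 and Gphn were the only called members. They are RefSeq sequences of GRCm38.p6, Gabra4 at chr5:71658259-71658558 on the minus strand and Gphn at chr12:78226405-78226704 on the plus strand, each 5′ to 3′ along its gene. Capitals mark matches on either strand to the Sp1 site GGGCGG or the CCAAT box.
Gabra4: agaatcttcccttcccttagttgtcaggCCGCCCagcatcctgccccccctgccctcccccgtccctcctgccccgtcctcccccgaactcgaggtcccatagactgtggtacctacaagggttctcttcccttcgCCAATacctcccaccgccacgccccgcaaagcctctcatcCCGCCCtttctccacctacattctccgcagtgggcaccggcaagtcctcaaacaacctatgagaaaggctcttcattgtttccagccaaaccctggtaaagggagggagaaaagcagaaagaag
Gphn: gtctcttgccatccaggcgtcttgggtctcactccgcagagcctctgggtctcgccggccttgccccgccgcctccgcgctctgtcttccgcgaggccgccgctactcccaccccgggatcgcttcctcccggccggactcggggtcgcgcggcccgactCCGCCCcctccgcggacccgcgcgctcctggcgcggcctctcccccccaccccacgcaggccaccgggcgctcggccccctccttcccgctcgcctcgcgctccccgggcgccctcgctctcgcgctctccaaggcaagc

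The Gphn window held 77.0% G and C with 42 CpG pairs and the Gabra4 window 58.7% with 12, against a median of 52.7% G and C over 32851 promoters of the table. GGGCGG matched 2 times in Gabra4 and 1 time in Gphn, and at least once in 35.7% of all promoters and in 16 of the 29 promoters listed for 24 of the 27 genes. CCAAT matched 1 time in Gabra4, and in 37.4% of all promoters. Neither window held the TATA box TATAAA (13.6% of all promoters), the cAMP response element TGACGTCA (1.8%), the Crx and Otx2 site TAATCC (7.1%) or the Egr site GCGTGGGCG (0.6%). None of these motifs overlapped another in the windows shown. The matches are a description of the letters and say nothing of binding.

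Chloride cotransporters decide whether an open GABA or glycine channel lets chloride in or out. Slc12a5 encodes KCC2, which extrudes chloride from mature neurons. Its lowest, median and highest log2 values were 11.26, 11.32 and 11.43 in diabetic retinas, against 11.12, 11.26 and 11.33 in control retinas. The groups overlapped, and the log2 change of 0.08 ± 0.04 did not pass (adjusted p = 0.301; 95% confidence interval -0.01 to 0.16). Slc12a2 encodes NKCC1, which loads chloride into cells. It had 8.64, 8.94 and 9.06 in diabetic retinas, against 8.75, 8.82 and 8.91 in control retinas.

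The lowest Slc12a2 value of all 12 arrays was that of diabetic 2, while the other 5 diabetic arrays lay at 8.88 or above and 5 of the 6 control arrays at 8.83 or below. With all arrays the log2 change was 0.10 ± 0.06 (adjusted p = 0.372). Without diabetic 2 it was 0.16 (adjusted p = 0.0499), which passed the test by a narrow margin. Slc12a2 did not pass in the 11 other runs without 1 array (limma adjusted p up to 0.5562). Nor did it pass in any of the 9 alternatives (limma adjusted p of at least 0.1055). Within each array, the log2 value of Slc12a5 minus that of Slc12a2 was taken, a difference of 2 signals in whole tissue. It averaged 2.42 ± 0.20 in diabetic retinas and 2.44 ± 0.10 in control retinas (SD). These means differed by -0.03, less than the spread in either group. Diabetic 2 had the highest value of the 12 arrays (2.74), and the comparison was not made without it.

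**Figure D3:**
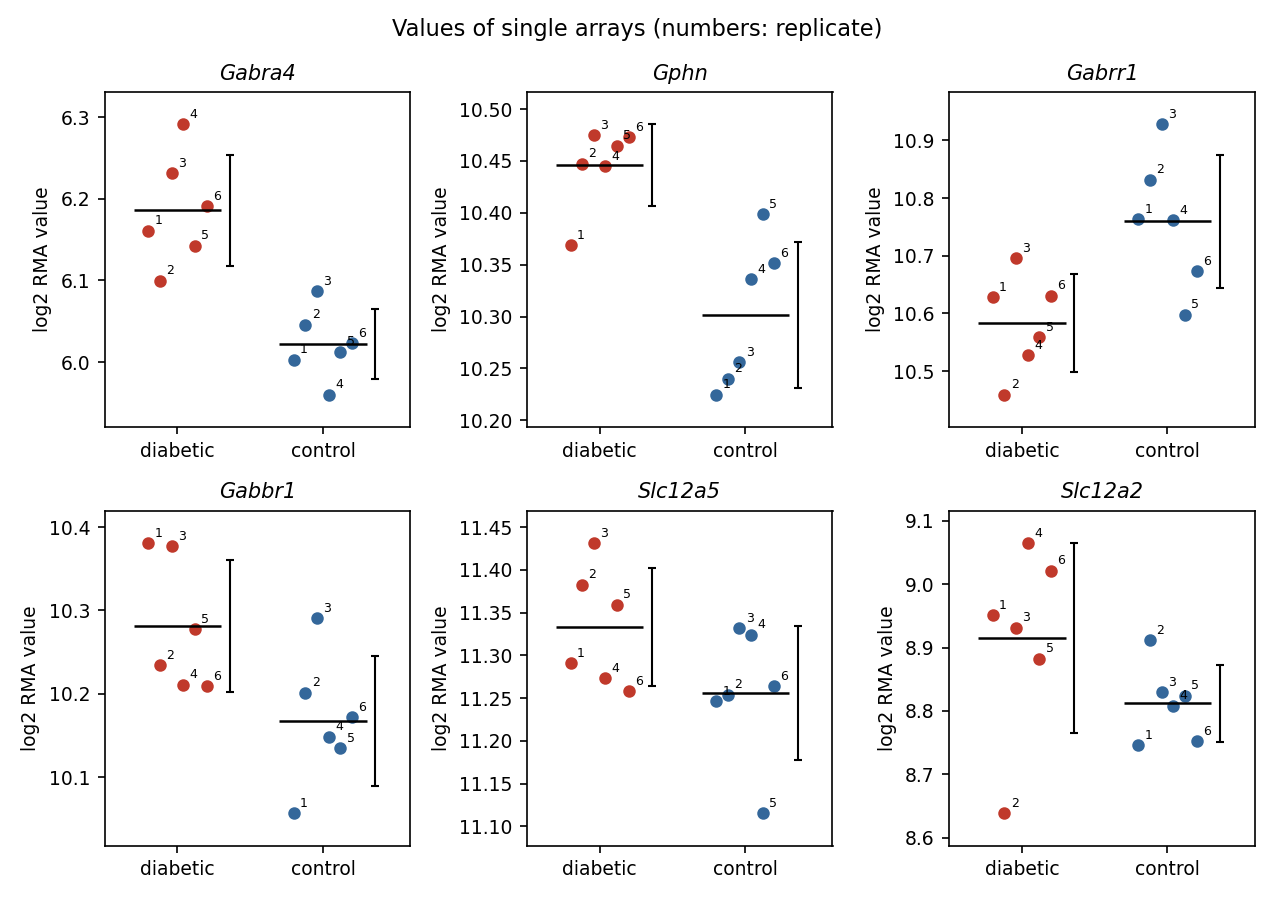
Log2 RMA values (vertical axes, each with its own scale) of Gabra4, Gphn, Gabrr1, Gabbr1, Slc12a5 and Slc12a2 in single diabetic (left, red) and control (right, blue) retinas, numbered by replicate, with the mean as a line and the SD as a bar. The groups part only for Gabra4, as they do for 2.84% of all genes, and diabetic 2 is the lowest array for Slc12a2.

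Diabetic 2 and control 6 were the lowest arrays over the 23 genes above background. Their mean deviations from the mean of the 12 arrays were -0.0927 and -0.0955 (log2). Control 6 was the lowest of the 12 arrays for 2 of the 23 genes (8.7%), against 7.1% of all 14716 genes above background. Diabetic 2 was the lowest for 9 of the 23 (39.1%), against 9.5% of all 14716. These were Gabra2, Gabra3, Gabrb1, Gabrb2, Gabrg1, Gabrr1, Glra3, Glrb and Slc12a2. For Gabra2 it had 6.95, with every other array at 7.23 or above, and for Glrb it had 9.35, with every other array at 9.43 or above. Diabetic 2 also had the lowest mean of the 9 ganglion cell markers (7.89, other arrays 7.91 to 8.18). The same held for the microglia (5.62) and red blood cell (5.22) markers, but only 3 of 5 and 0 of 2 of these were above background. Among diabetic arrays it was lowest for bipolar (9.74), Mueller (10.29), endothelium (6.82) and pigment epithelium (5.81) markers. Its amacrine marker mean (8.05) was not the lowest, and its horizontal cell marker mean (7.09) was the highest of the diabetic arrays. Control 3 was the highest array for 8 of the 23 genes (34.8%), against 7.3% of all genes above background. It also had the highest horizontal, amacrine and Mueller marker means (7.14, 8.27 and 10.59). The part of these marker levels in the changes was not tested.

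Leaving out diabetic 2 moved the median log2 change of the 27 genes to 0.03, and leaving out control 6 moved it to 0.0025. Without diabetic 2 the log2 changes were -0.04 for Gabra2, 0.03 for Gabra3, 0.03 for Glrb and 0.10 for Glra3, and none of these passed. Gabra4 kept its call (0.18; adjusted p = 0.0159), and Gphn lost it narrowly (0.14; adjusted p = 0.0501). Without diabetic 2 and 6 together, the arrays with the most lens signal, Gabra4 remained as the only call.

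**Figure D4:**
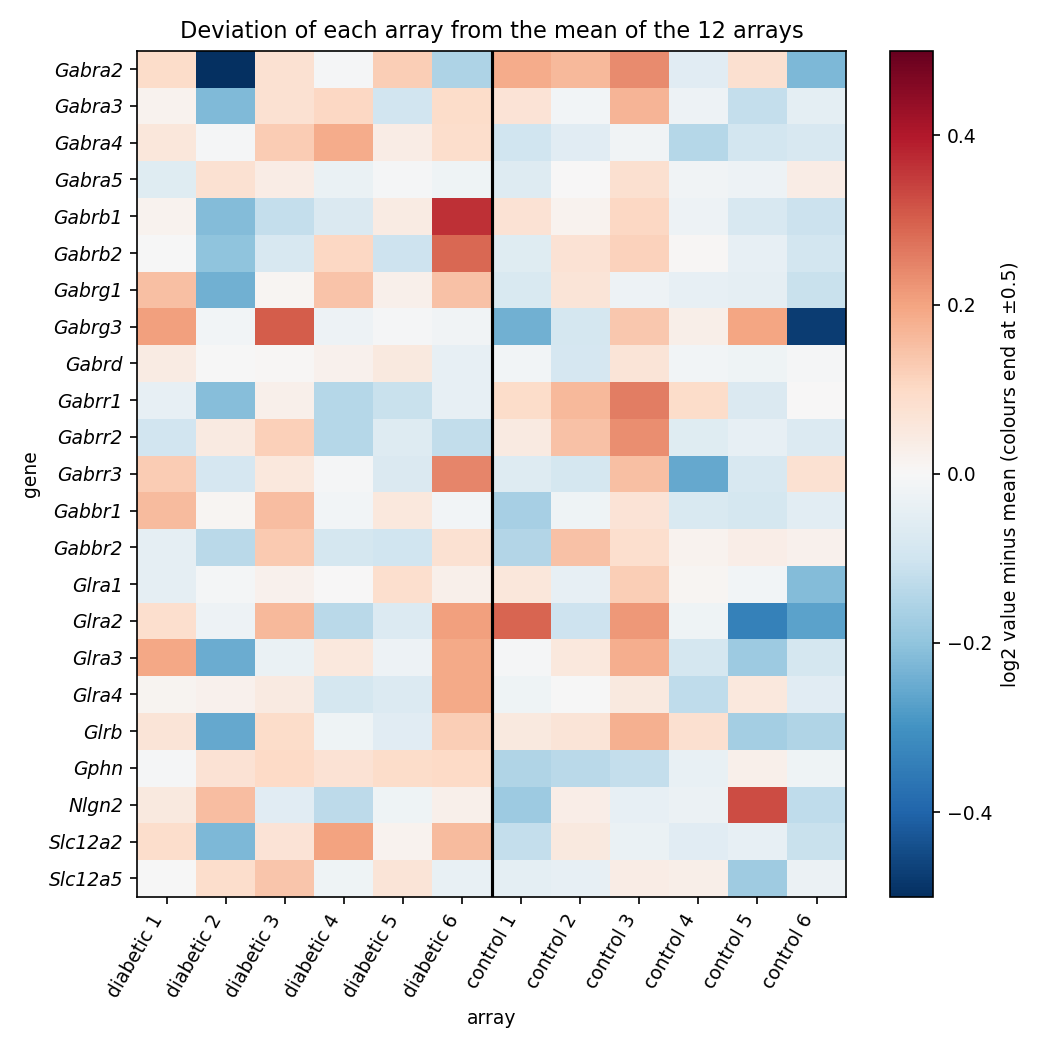
Deviation of each array (columns, diabetic left of the line, control right) from the mean of the 12 arrays for the 23 genes above background (rows), on the log2 scale, with colours ending at ±0.5. Diabetic 2 is blue in many rows and control 3 red, while Gabra4 and Gphn differ between the sides of the line.

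The wider machinery of inhibitory transmission was read from 6 lists with 71 genes, of which 1 rose and 2 fell (3.24% of all genes were called). The median log2 change of the 71 was 0.0015. Gabarap, an Atg8-family protein named for its binding to GABA-A receptors and also a protein of autophagy, fell. Its lowest, median and highest log2 values were 10.67, 10.70 and 10.88 in diabetic retinas, against 10.81, 10.97 and 11.12 in control retinas. Diabetic 1 reached into the range of control 4 and 6, and the log2 change was -0.22 ± 0.05 (limma adjusted p = 0.0463).

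Insyn1, a component of inhibitory postsynapses bound to the dystrophin complex, fell with 6.31, 6.38 and 6.44 in diabetic retinas, against 6.41, 6.66 and 6.70 in control retinas. Control 2 (6.48) and control 4 (6.41) were the lowest controls, and only control 4 overlapped the diabetic range. Its log2 change was -0.21 ± 0.05 (limma adjusted p = 0.0451). Nlgn1, a neuroligin found mostly at excitatory synapses, rose with 7.18, 7.23 and 7.41 in diabetic retinas, against 6.86, 7.08 and 7.15 in control retinas. Its groups did not overlap, as in 2.84% of all genes, and the log2 change was 0.24 ± 0.06 (limma adjusted p = 0.0475). The 3 calls lay close to the threshold. Of the 12 runs without 1 array, Gabarap and Insyn1 each passed in 3 and Nlgn1 in 0, with adjusted p of at most 0.0899, 0.0894 and 0.0929. Over these runs the log2 change lay between -0.25 and -0.19 for Gabarap, -0.25 and -0.19 for Insyn1, and 0.21 and 0.26 for Nlgn1.

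**Figure D5:**
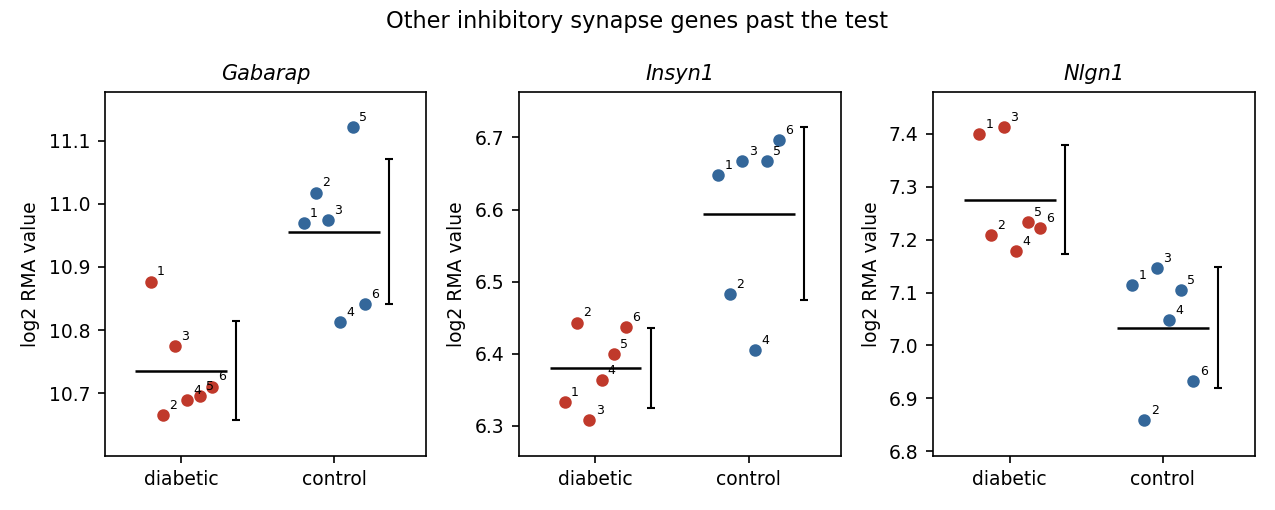
Log2 RMA values (vertical axes, each with its own scale) of Gabarap, Insyn1 and Nlgn1 in single diabetic (left, red) and control (right, blue) retinas, numbered by replicate, with the mean as a line and the SD as a bar. Only Nlgn1 shows no overlap between the groups.

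No gene of 4 of the 6 lists passed: synthesis and breakdown (0 of 11), vesicle loading and uptake (0 of 7), GABA-B partners and potassium channels (0 of 8) and other chloride cotransporters, kinases and channels (0 of 15). At an unadjusted p under 0.05 in limma these lists held 4 (36.4%), 1 (14.3%), 0 and 3 (20.0%) genes, against 21.0% of all genes. The trafficking list held 1 call in 15 genes and the postsynaptic organisers 2 in 15. The genes that rose are long and those that fell are short, with genomic spans of 467.4 kb for Gphn, 88.6 kb for Gabra4, 911.1 kb for Nlgn1, 3.6 kb for Gabarap and 11.2 kb for Insyn1. When genes no dimmer than the median gene were cut into 5 bins by span, the median log2 change was -0.03 in the bin of shortest genes and 0.02 in that of longest genes. The part of this trend in the 5 calls was not tested.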

How the data were processed

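Log2 values in the deposited table came from RMA, per the submitters' processing notes. The RMA version, the array name and the probe positions are not given in the sources used here. Of 24973 lines, 24015 were named by the platform annotation and 559 more by RefSeq (GRCm38.p6), and 399 stayed unnamed. Of several lines of a symbol (4 symbols), the brightest was kept. Changes are diabetic minus control, two-sided, from limma 3.58.1 (lmFit and eBayes, R 4.3.3) over all 24570 genes with Benjamini-Hochberg adjustment and a threshold of 0.05. No filter was used. All 12 arrays share 1 distribution, so a shift of most genes together would not show. Precision is limited by how few arrays there are, and the labels call the animals biological replicates. On simulated data with 24570 genes, 72.0% of genes changed 1.2-fold and 94.0% of genes changed 1.3-fold were recovered. The changed genes were drawn at random from all genes, with independent normal values. The median SD within groups was 0.06 for all genes and 0.10 for the 27 members, so these shares do not hold for the members. Changes under 1.2-fold, such as the 2 called here, were not simulated.

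The members, the lists and the alternatives were chosen with earlier results of these data known. All 27 members were named, with single-array values for those past the test or of smallest p, and for Glra1, Gabrr1, Gphn and Slc12a5 in any case. Slc12a2, Gabra2, Gabra3, Gabrb1, Gabrb2, Gabrg1, Gabrg3, Glra2, Glrb and Nlgn2 were given single-array values after their values were seen, and promoter motifs were chosen after the calls were known.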

Additional observations from a re-analysis of the deposited data

Results flagged for a closer look

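In 4 of 60 groups of 6 arrays (27 members and 3 other genes called), 1 array stood apart, judged by its gap to the nearest array over the group's range (6.7%, where chance gives about 1 in 20). Gphn had a ratio of 0.722 in diabetic retinas, with diabetic 1 low (10.37). Gabrg1 had 0.642 in diabetic retinas, with diabetic 2 low (5.67). The other 2 were below background: Gabrq with 0.659 (diabetic 2, low, 5.23) and Gabra6 with 0.650 (control 2, low, 5.16).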

How the results depend on the processing

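Of 27 members, 17 kept the sign of their change under each of the 9 alternatives that tested them and in all 12 runs without 1 array (filters on dim genes removed Gabre, Gabrp and Gabrq, so fewer alternatives apply to these), and 10 did not, none of them past the test. Without diabetic 2 and 6 the log2 change turned to 0.0076 for Gabra2, 0.0200 for Gabra3, -0.0304 for Gabrb1, -0.0207 for Gabrb2, -0.0071 for Glra4, 0.0116 for Glrb and -0.0361 for Nlgn2. Array weights gave -0.0010 for Gabra6 and -0.0099 for Gabrb1, and cyclic loess 0.0032 for Gabra5 and -0.0005 for Gabrb2. Leaving out 1 array gave -0.0349 to 0.0330 for Gabra3, -0.0190 to 0.0123 for Gabra5, -0.0035 to 0.0043 for Gabra6, -0.0669 to 0.0495 for Gabrb1, -0.0569 to 0.0408 for Gabrb2, -0.0137 to 0.0538 for Glra1, -0.0535 to 0.0320 for Glrb and -0.0283 to 0.0731 for Nlgn2.

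The count of all genes past the test (797) ran from 325 to 835 without 1 array, that of members (2) from 0 to 2, and that of other pathway genes (3) from 0 to 2. It was 379, 1 and 1 without diabetic 2 and 6, where fewer arrays enter. With the replicate number as a block it was 506, 1 and 1, where Gabra4 lost its call (adjusted p = 0.0641) and Gphn kept it. Same-numbered arrays deviated together in 1 of 6 pairs (correlations from -0.16 to 0.17), and 1 of 6 diabetic arrays correlated best with its own number, so the numbers were not taken to pair the animals. A variance trend left 1 member (Gabra4; Gphn adjusted p = 0.0542), and robust variances left 0 other pathway genes (Nlgn1 adjusted p = 0.0530); the causes were not tested. Other alternatives (array weights, cyclic loess, every line on its own and both filters on dim genes) kept both members, but array weights ended the call of Gabarap (adjusted p = 0.0524) and cyclic loess that of Insyn1 (0.0524), and the block ended both (0.0731 and 0.0820). For the 4 members below background, and in part for the 5 between both background limits, a missing call says little.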
